A study of Rattus norvegicus with 14 samples.

Results

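The genes described here are the 8 transcripts of AMPA-type glutamate receptors that were named by symbol and read from the gene rows of all 14 libraries: the pore-forming subunit genes Gria1, Gria2, Gria3 and Gria4, the transmembrane AMPA receptor regulatory protein (TARP) genes Cacng2, Cacng3 and Cacng8, and the cornichon gene Cnih2. All 8 were found among the 22601 genes of each library, and all 8 passed the filter on low values that left 12744 genes for testing. The rule that picks them uses names and no measured value, but the set was proposed with earlier results of these data known.

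AMPA receptors are tetrameric cation channels that carry most of the fast excitatory current between neurons, and the pyramidal cells of the hippocampus are rich in them. The subunit made from Gria2 is special, because its RNA is edited by an adenosine deaminase at the pore and receptors that hold the edited subunit pass little calcium. Auxiliary proteins of the TARP and cornichon families bind the assembled channel, bring it to the synapse and slow its closing, and the TARP made from Cacng8 is the prominent one of the hippocampus.

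The libraries came from hippocampal tissue (about 100 mg) of wild type Wistar rats of 180 to 220 g and fall into 3 groups. Control rats had vehicle alone (n = 4 libraries). PTZ rats had pentylenetetrazole, a chemical convulsant acting as a blocker of GABA-A receptors, together with vehicle (n = 5 libraries). PTZ+Q808 rats had the convulsant and Q808, a code-named compound (n = 5 libraries). The sources used here give no dose, time of sampling, age or sex. Nothing in them says how replicates were kept apart, so the p-values measure the spread between these libraries, which may be partly technical.

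The unit is FPKM, fragments per kilobase of transcript scaled to the mapped fragments of the library, which the authors computed for each gene and library. It is scaled by length, so levels of different genes are set side by side here, but the transcript lengths behind it were not checked. The order of levels and the subunit shares below therefore describe FPKM and do not establish proportions of transcripts. The depth behind each value is unknown. FPKM summed to between 383126 and 419358 per library, and no pair of libraries shared more than 0.0157% identical values among tested genes. All 10 markers of hippocampal excitatory neurons were above 0 in every library, among them Slc17a7 (524 to 821 FPKM) and the CA1 and dentate markers Wfs1 (97.3 to 159) and Prox1 (4.26 to 12.1). The lowest of the list were Fibcd1 (0.689 to 3.54 FPKM) and Zbtb20 (0.995 to 4.14), which fell under 1 FPKM in part of the libraries. Libraries also differed in neighbouring tissue. Ttr of the choroid plexus was under 500 FPKM in 3 libraries (control replicate 3, PTZ replicate 2 and PTZ+Q808 replicate 1), striatum markers summed to 489.7 FPKM in control replicate 2 against 43.5 to 62.9 in the other 13, and pituitary markers to 686 FPKM in PTZ+Q808 replicate 3 against 2.57 to 12.6 elsewhere. The changes of Gria2, Gria3 and Gria4 in PTZ+Q808 versus control are given with and without these libraries below. The subunit shares and the ratios to Gria1 are given with all libraries only.

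Cnih2 and Gria1 had the highest FPKM of the 8 transcripts. Over all 14 libraries Cnih2 averaged 152 FPKM (123 to 185) and Gria1 146 FPKM (123 to 178), and Cnih2 was above Gria1 in 8 of 14 libraries, so their order was not separated by the spread. Cacng8 followed at 91.4 FPKM (81.0 to 102) and lay below Gria1 and above Gria2 in 14 of 14 libraries. Gria2 averaged 73.1 FPKM (59.1 to 88.4) and Cacng3 62.7 (49.4 to 77.7), with Gria2 the higher of the pair in 11 of 14. Gria3 came next at 36.1 FPKM (29.7 to 41.2), below Cacng3 and above Gria4 in all 14 libraries. Gria4 (15.0 FPKM, 10.9 to 18.4) and Cacng2 (12.3 FPKM, 9.57 to 14.9) were the lowest, and Gria4 was the higher in 13 of 14. Mean levels put Cnih2 above 98.0% and Cacng2 above 75.5% of the 22601 genes. The plot of FPKM by library shows each of these values.

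**Figure D1:**
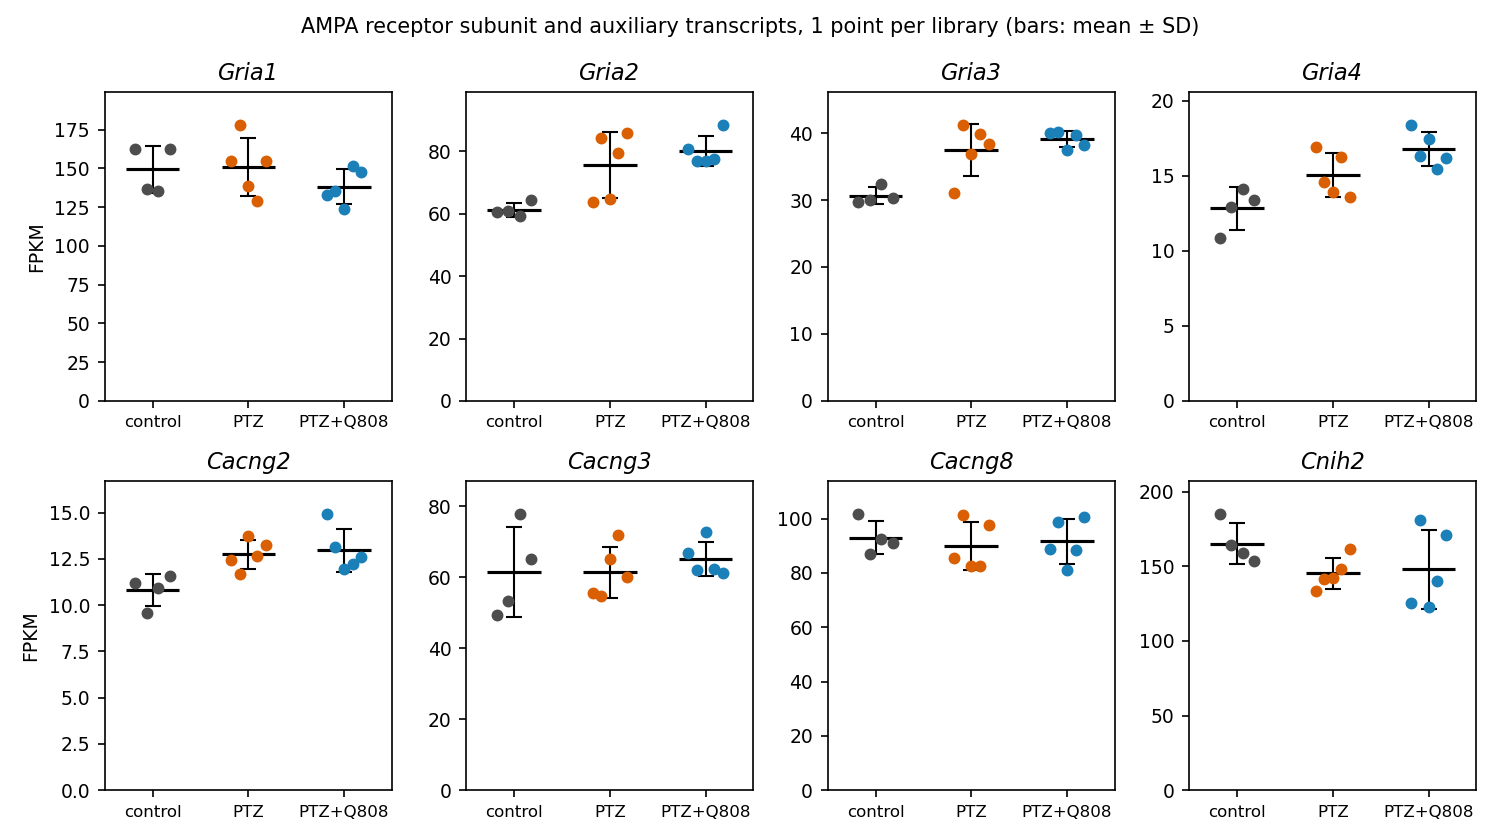
FPKM (y axis, starting at 0) of the 8 transcripts in control, PTZ and PTZ+Q808 libraries (x axis), with 1 point per library and bars for the mean and SD. Gria2, Gria3, Gria4 and Cacng2 in PTZ+Q808 lie above all 4 control libraries, while Gria1, Cacng3, Cacng8 and Cnih2 overlap between groups.

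Sequence upstream of the start was taken from RefSeq (GRCr8) for Gria4, Cacng2, Cacng3, Cacng8 and Cnih2, 5 of the 8 members matched by gene identifier. The 250 bases before the start are shown for Gria4 and Cacng2, whose PTZ+Q808 libraries all lay above control, and for Cnih2, whose means were lower in both PTZ groups. Capitals mark the GC box (GGGCGG on either strand).
Gria4, GRCr8 chr8:10319882-10320131, minus strand: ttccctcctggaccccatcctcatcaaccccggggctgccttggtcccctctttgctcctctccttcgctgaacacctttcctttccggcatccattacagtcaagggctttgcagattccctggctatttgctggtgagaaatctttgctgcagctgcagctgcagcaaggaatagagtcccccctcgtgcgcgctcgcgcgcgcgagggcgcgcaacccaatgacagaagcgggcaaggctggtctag
Cacng2, GRCr8 chr7:111577758-111578007, minus strand: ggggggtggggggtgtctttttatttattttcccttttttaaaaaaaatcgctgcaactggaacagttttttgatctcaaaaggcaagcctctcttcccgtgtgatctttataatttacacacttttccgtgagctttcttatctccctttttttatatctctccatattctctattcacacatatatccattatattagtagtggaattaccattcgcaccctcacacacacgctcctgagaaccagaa
Cnih2, GRCr8 chr1:211834438-211834687, minus strand: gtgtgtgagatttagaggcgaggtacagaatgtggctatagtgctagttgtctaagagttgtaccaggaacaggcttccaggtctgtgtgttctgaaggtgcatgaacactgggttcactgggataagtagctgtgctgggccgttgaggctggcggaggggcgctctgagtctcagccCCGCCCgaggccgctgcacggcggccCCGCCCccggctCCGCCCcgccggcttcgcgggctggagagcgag
The letters searched on both strands were the cAMP response element TGACGTCA, its core TGACG (which the full element contains), the AP-1 motif TGANTCA, the EGR1 motif GCGTGGGCG and the GC box. Cnih2 held 3 GC boxes, at 71 to 66, 45 to 40 and 33 to 28 bases before the start, and Cacng3 held 1. No other searched letters were found in the 5 windows. Over 33469 RefSeq windows of this length, 30.5% held a GC box, 18.2% the core, 6.34% the AP-1 letters, 1.59% the full cAMP response element and 0.478% the EGR1 letters. The Cacng2 window had a GC content of 38.4%, against 59.6% for Gria4, 62.8% for Cnih2 and a median of 51.2% over all windows. A match of letters is a description of the sequence and not a measured site.

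The 3 comparisons asked which transcripts differed in the seizure model (PTZ versus control), what the compound changed within it (PTZ+Q808 versus PTZ) and what differed from vehicle after both agents (PTZ+Q808 versus control). They share libraries with each other and are not independent. Log2 changes below are differences of group means of log2(FPKM + 1) with their standard error (SE), tested with limma over 12744 genes, and calls were made where the p adjusted after Benjamini and Hochberg over all these genes was under 0.05.

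Gria2, Gria3 and Gria4 rose in PTZ+Q808 versus control, by 1.31-, 1.28- and 1.31-fold of mean FPKM. Gria1 did not pass in any comparison. In PTZ versus control 0 of 8 members were called (0.0314% of all genes tested were called, all of them higher), in PTZ+Q808 versus PTZ 0 of 8 (0% of all genes), and in PTZ+Q808 versus control 3 of 8 (2.87% of all genes, 1.94% called higher). In tissue samples such as these, fewer cells of a type and less RNA per cell cannot be told apart.

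Gria2 encodes the subunit that limits calcium entry. It was 60.6, 60.8, 59.1 and 64.3 FPKM in control replicates 1 to 4. In PTZ replicates 1 to 5 it was 63.9, 84.3, 64.8, 79.5 and 85.9 FPKM, and in PTZ+Q808 replicates 1 to 5 it was 80.8, 77.0, 76.8, 77.6 and 88.4. Every PTZ+Q808 library was above every control, while PTZ replicate 1 fell within the control range and replicate 3 just above it. Gria2 rose by 0.38 ± 0.0864 (SE) in PTZ+Q808 versus control (adjusted p = 0.0352). The change was 0.29 ± 0.0864 in PTZ versus control (adjusted p = 0.431) and 0.09 ± 0.0814 in PTZ+Q808 versus PTZ (adjusted p = 0.912, 95% interval -0.08 to 0.26), neither of which passed. The SD among PTZ libraries was 14.03% of the mean, against 3.56% in control and 6.11% in PTZ+Q808.

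Gria3 encodes a subunit that pairs mostly with the Gria2 product and is linked in people to intellectual disability. Control values were 29.7, 30.1, 32.5 and 30.4 FPKM. PTZ values were 31.0, 41.2, 36.8, 39.8 and 38.4 FPKM, and PTZ+Q808 values were 40.0, 40.1, 37.4, 39.7 and 38.3. The PTZ+Q808 libraries lay in a narrow band above all controls, and of the PTZ libraries replicate 1 alone reached down into the control range. Gria3 rose by 0.34 ± 0.0683 in PTZ+Q808 versus control (adjusted p = 0.0241), where it ranked 96 of 12744 genes by p. It did not pass in PTZ versus control (0.28 ± 0.0683, adjusted p = 0.335) or in PTZ+Q808 versus PTZ (0.07 ± 0.0644, adjusted p = 0.924, 95% interval -0.07 to 0.20). Without PTZ replicate 1 the PTZ change was 0.34 and was called (adjusted p = 0.0365).

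Gria4 encodes the subunit of fast channels in interneurons and glial precursors. It was 10.9, 12.9, 14.1 and 13.4 FPKM in control. It was 16.9, 14.6, 13.9, 16.3 and 13.6 FPKM in PTZ and 18.4, 16.3, 17.5, 15.5 and 16.2 in PTZ+Q808. The PTZ+Q808 libraries were all above control, and PTZ replicates 3 and 5 overlapped with control replicate 3. Gria4 rose by 0.37 ± 0.0826 in PTZ+Q808 versus control (adjusted p = 0.0348). The changes of 0.22 ± 0.0826 in PTZ versus control (adjusted p = 0.563) and 0.15 ± 0.0779 in PTZ+Q808 versus PTZ (adjusted p = 0.825, 95% interval -0.02 to 0.32) did not pass. Among markers of cells that use this subunit, limma called 0 of 8 for GABA interneurons and 0 of 6 for oligodendrocyte precursors in PTZ+Q808 versus control (2.87% of all genes). Their median changes were 0.02 and -0.17, with 3 and 2 at an unadjusted p under 0.05 (20.7% of all genes). These went both ways. Vip was higher (0.52, adjusted p = 0.0752), Slc32a1 (-0.33, adjusted p = 0.106) and Gad1 (-0.12, adjusted p = 0.239) were lower, and of the precursor markers 1 was higher and 1 lower. The interneuron markers summed to 523 to 691 FPKM in control and 554 to 619 in PTZ+Q808, and none of the 14 markers was at 0. Their part in the result was not tested.

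Gria1 encodes the subunit that is added to synapses during potentiation. It was 163, 137, 135 and 162 FPKM in control, 154, 178, 139, 129 and 155 in PTZ, and 133, 135, 123, 151 and 148 in PTZ+Q808. The 3 groups overlapped, with the highest value in PTZ replicate 2 and the lowest in PTZ+Q808 replicate 3. Its change was 0.01 ± 0.0938 in PTZ versus control (adjusted p = 0.981, 95% interval -0.19 to 0.21). It was -0.12 ± 0.0884 in PTZ+Q808 versus PTZ (adjusted p = 0.864) and -0.11 ± 0.0938 in PTZ+Q808 versus control (adjusted p = 0.549, 95% interval -0.31 to 0.09).

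Among the auxiliary genes limma called 0 of 4 in each of the 3 comparisons. Of all genes, 0.0314% were called in PTZ versus control, 0% in PTZ+Q808 versus PTZ and 2.87% in PTZ+Q808 versus control. In both comparisons with control 1 of 4, Cacng2, had an unadjusted p under 0.05 (8.11% of all genes in PTZ, 20.7% in PTZ+Q808). Cacng2 encodes stargazin, the TARP whose loss causes absence seizures and ataxia in the stargazer mouse. It was 11.2, 9.57, 10.9 and 11.6 FPKM in control, 12.4, 11.7, 13.7, 12.7 and 13.2 in PTZ, and 14.9, 13.2, 11.95, 12.2 and 12.6 in PTZ+Q808. All 10 libraries of the PTZ groups were above all 4 controls, by a small margin for PTZ replicate 2. Of all genes, 1.44% lay above all controls in PTZ and 4.75% in PTZ+Q808. The change of Cacng2 was 0.22 ± 0.0723 in PTZ versus control (adjusted p = 0.483), 0.24 ± 0.0723 in PTZ+Q808 versus control (adjusted p = 0.0824) and 0.02 ± 0.0681 in PTZ+Q808 versus PTZ (adjusted p = 0.977, 95% interval -0.13 to 0.17), and none passed.

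Cacng8, the main hippocampal TARP gene, was 102, 87.0, 92.4 and 90.9 FPKM in control, 85.5, 101, 82.7, 82.7 and 97.5 in PTZ, and 88.9, 98.8, 81.0, 88.3 and 101 in PTZ+Q808. The groups overlapped and the means differed by less than the spread between libraries (changes of -0.05 ± 0.0792 in PTZ and -0.02 ± 0.0792 in PTZ+Q808 versus control, adjusted p = 0.888 and 0.898). Cacng3, a TARP gene of cortex and hippocampus, spread widely in control, at 49.4, 53.4, 77.7 and 65.3 FPKM. It was 55.5, 54.7, 65.1, 71.9 and 59.9 FPKM in PTZ and 66.9, 62.0, 72.6, 62.3 and 61.2 in PTZ+Q808. Both the lowest and the highest value belonged to control libraries, and its changes versus control were 0.01 ± 0.117 in PTZ and 0.10 ± 0.117 in PTZ+Q808 (adjusted p = 0.985 and 0.682).

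Cnih2 encodes cornichon homolog 2, which aids export of AMPA receptors from the endoplasmic reticulum and slows their deactivation. It was 185, 164, 159 and 153 FPKM in control, 133, 142, 142, 148 and 161 in PTZ, and 125.7, 181, 123, 140.1 and 171 in PTZ+Q808. Means were lower in both PTZ groups, but PTZ replicate 5 and PTZ+Q808 replicates 2 and 5 lay within the control range. Its changes versus control were -0.18 ± 0.109 in PTZ (adjusted p = 0.693, 95% interval -0.42 to 0.05) and -0.17 ± 0.109 in PTZ+Q808 (adjusted p = 0.394, 95% interval -0.40 to 0.06). In PTZ+Q808 versus PTZ the changes of Cacng8 (0.03), Cacng3 (0.09) and Cnih2 (0.01) had adjusted p of 0.969, 0.935 and 0.992.

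**Figure D2:**
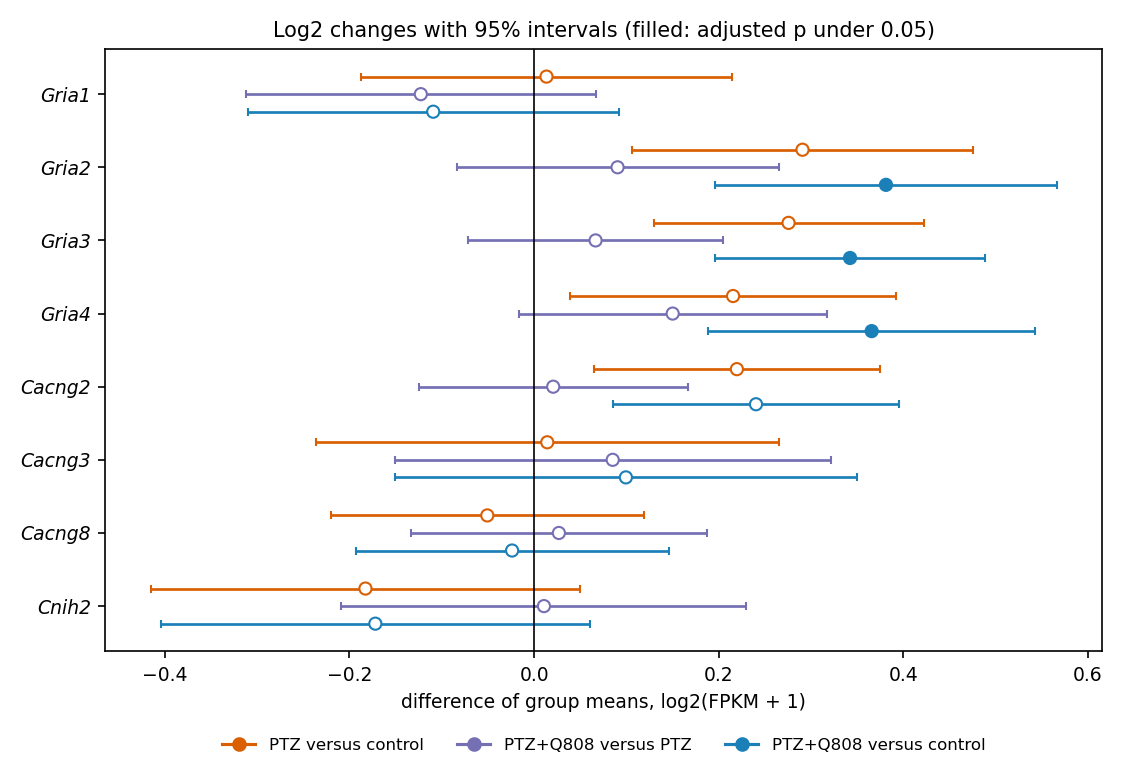
Differences of group means of log2(FPKM + 1) (x axis) for the 8 transcripts (y axis) in the 3 comparisons, as points with 95% intervals, filled where the adjusted p was under 0.05. The filled points are Gria2, Gria3 and Gria4 in PTZ+Q808 versus control, at 0.38, 0.34 and 0.37.

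By comparison, 6 of 8 members had a positive change in PTZ versus control (46.3% of all genes), with a median of 0.11 against -0.01 over all genes. An unadjusted p under 0.05 was seen for 4 of 8 (Gria2, Gria3, Gria4 and Cacng2, against 8.11% of all genes), and groups did not overlap for 1 of 8, Cacng2 (3.03% of all genes, 1.44% with PTZ higher). In PTZ+Q808 versus PTZ 7 of 8 changes were positive (48.3% of all genes) with a median of 0.05 against -0.0044, 0 of 8 had an unadjusted p under 0.05 (6.14% of all genes), and 0 of 8 had groups that did not overlap (0.777% of all genes, 0.447% with PTZ+Q808 higher). In PTZ+Q808 versus control 5 of 8 were positive (44.7% of all genes) with a median of 0.17 against -0.02. There 4 of 8 had an unadjusted p under 0.05 (20.7% of all genes), and 4 of 8 had all PTZ+Q808 libraries above all controls (8.91% of all genes did not overlap, 4.75% with PTZ+Q808 higher).

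The 3 calls were lost with several single libraries, while the changes stayed positive. The count of called members was 0 without control replicate 1, 3 or 4 or PTZ+Q808 replicate 1, 3 or 5, and 1 (Gria3) without control replicate 2. It was 3 without any single PTZ library or PTZ+Q808 replicate 2 or 4. In the fits without a PTZ library the change itself cannot move, only its p. Over these 14 fits the change was 0.35 to 0.40 for Gria2, 0.33 to 0.37 for Gria3 and 0.29 to 0.41 for Gria4, with adjusted p of up to 0.0956, 0.0814 and 0.102. Over the same fits the count of all called genes, 366 with every library, ran from 17 to 673. Without the 3 libraries low in Ttr the changes were 0.36, 0.36 and 0.38 (adjusted p = 0.177, 0.144 and 0.151) and 0 genes in all were called in this comparison. Without control replicate 2 and PTZ+Q808 replicate 3, the libraries high in striatum and pituitary markers, they were 0.39, 0.35 and 0.36 (adjusted p = 0.0929, 0.0721 and 0.104).

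Means of markers of other cells also differed in this comparison, but the ranges of summed FPKM overlapped for every list. Of all genes, 44.7% had positive changes there and 2.87% were called. Myelinating oligodendrocyte markers had lower means in PTZ+Q808 than in control for 8 of 8 genes (median change -0.40, 0 called), with summed FPKM of 3557 to 7064 in control and 2602 to 4928 in PTZ+Q808. Meningeal and fibroblast markers were higher for 8 of 8 (median 0.67, 0 called), at 71.2 to 142 and 89.0 to 262 FPKM, and neocortex markers for 7 of 8 (median 0.22, 0 called), at 73.3 to 109 and 75.8 to 107. Striatum markers were lower for 7 of 7 tested (median -0.69, 0 called), with 489.7 FPKM in control replicate 2. Control replicates 1, 3 and 4, at 46.8, 56.6 and 55.5 FPKM, lay within the 44.7 to 62.9 of PTZ+Q808. Excitatory neuron markers of the hippocampus were higher for 3 of 10 (median -0.06, 0 called), at 1319 to 1418 and 1160 to 1368 FPKM. No marker of these 5 lists had a value of 0. With the mean of the myelin markers as a covariate the changes of Gria2, Gria3 and Gria4 were 0.39, 0.35 and 0.29 (adjusted p = 0.0622, 0.0443 and 0.0913), and with that of the excitatory neuron markers 0.41, 0.35 and 0.35 (adjusted p = 0.0285, 0.0282 and 0.0469). The part of meningeal or cortical tissue in the result was not tested. Immediate early genes, the transcripts that mark recent neuronal firing, summed to 172 to 378 FPKM in control, 371 to 1577 in PTZ and 329 to 1484 in PTZ+Q808. All 12 of 12 were higher in PTZ+Q808 versus control (median change 1.63), and Dusp1, Npas4 and Fos were called there (adjusted p = 0.0226, 0.0377 and 0.0422). In PTZ versus control 12 of 12 were higher too (median 1.45, with 0 called by limma and 10 at an unadjusted p under 0.05). The part of recent firing in the result was not tested.

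In the summed subunit FPKM, the mean share of Gria1 was lower and those of the other 3 subunits higher in both PTZ groups than in control. Gria1 made up 58.7% ± 2.63 (SD, n = 4) of the summed subunit FPKM in control libraries, against 54.0% ± 3.50 (n = 5) after PTZ and 50.3% ± 1.91 (n = 5) after PTZ+Q808. The share of Gria2 was 24.1% ± 1.00, 27.1% ± 2.57 and 29.2% ± 1.24, that of Gria3 12.1% ± 1.08, 13.5% ± 1.34 and 14.3% ± 0.728, and that of Gria4 5.08% ± 0.742, 5.44% ± 0.821 and 6.14% ± 0.646. Control libraries held 56.1 to 61.7% Gria1 and PTZ+Q808 libraries 48.4 to 53.2%, with no overlap, and PTZ libraries ran from 48.7 to 58.0%. These shares are scores over the members and carry no test. Their total was 254 ± 15.5 FPKM in control, 279 ± 25.9 in PTZ and 274 ± 13.9 in PTZ+Q808.

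**Figure D3:**
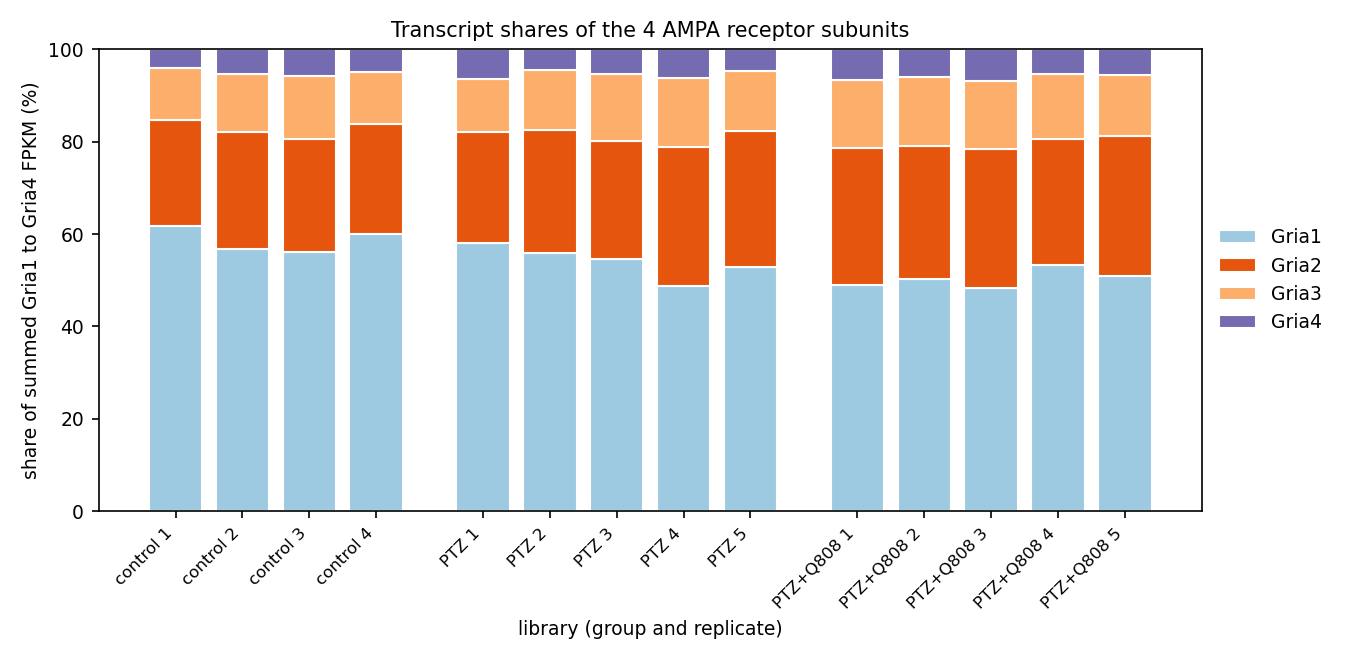
Share of each subunit gene in the summed FPKM of Gria1 to Gria4 (y axis, in percent, stacked from 0 to 100) in each of the 14 libraries (x axis). The Gria1 block is tallest in control (56.1 to 61.7%) and lower in all PTZ+Q808 libraries (48.4 to 53.2%).

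Ratios of transcripts within a library do not depend on how libraries are scaled, and 6 ratios were tested in 3 comparisons (18 exact permutation tests, two-sided, adjusted together). Gria2 relative to Gria1 was 0.373, 0.446, 0.437 and 0.396 in control, 0.413, 0.474, 0.467, 0.617 and 0.555 in PTZ, and 0.607, 0.570, 0.622, 0.514 and 0.598 in PTZ+Q808. All PTZ+Q808 libraries were above all controls, with a log2 difference of 0.50 ± 0.0780 (SE) and an exact permutation p of 0.00794, the smallest that 4 against 5 libraries can give (adjusted p = 0.0714, not passing). Gria3 relative to Gria1 also did not overlap between these groups (0.46 ± 0.108, exact permutation p = 0.00794, adjusted p = 0.0714). With 18 tests adjusted together, these ratios at the smallest p could not pass on their own, however far apart the groups lay. Gria4 relative to Gria1 overlapped between PTZ+Q808 and control (0.50 ± 0.167, exact permutation p = 0.0238, adjusted p = 0.107). In PTZ versus control the differences were 0.28, 0.27 and 0.22 (adjusted exact permutation p = 0.196, 0.206 and 0.385). In PTZ+Q808 versus PTZ they were 0.22, 0.19 and 0.28 (adjusted exact permutation p = 0.196, 0.214 and 0.196).

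Among the auxiliary genes, Cacng2 relative to Cacng8 averaged 0.117 ± 0.00829 (SD, n = 4) in control libraries, against 0.143 ± 0.0191 (n = 5) after PTZ and 0.142 ± 0.0163 (n = 5) after PTZ+Q808. The log2 difference from control was 0.29 in PTZ (exact permutation p = 0.0397, adjusted p = 0.143) and 0.28 in PTZ+Q808 (exact permutation p = 0.0238, adjusted p = 0.107). Cacng3 relative to Cacng8 was 0.665 ± 0.151 in control, 0.692 ± 0.134 in PTZ and 0.718 ± 0.115 in PTZ+Q808. Cnih2 relative to Cacng8 was 1.78 ± 0.0913, 1.63 ± 0.152 and 1.61 ± 0.163. For these last 2 ratios the groups overlapped in every comparison and no difference passed (adjusted exact permutation p from 0.214 to 0.908).

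The other genes of the AMPA receptor system were read from 4 lists, and limma called 0 of their 49 genes in each comparison. Of all genes, 0.0314% were called in PTZ versus control, 0% in PTZ+Q808 versus PTZ and 2.87% in PTZ+Q808 versus control. Of 18 other auxiliary genes, 10 had positive changes in PTZ+Q808 versus control (44.7% of all genes, median 0.02). An unadjusted p under 0.05 was seen for 4 of the 18 (20.7% of all genes). Olfm3, which encodes a noelin that binds AMPA receptors outside the cell, had the smallest p in both comparisons with control. It was 4.74 ± 1.18 FPKM in control, 7.18 ± 0.956 in PTZ and 6.90 ± 0.713 in PTZ+Q808, with changes of 0.53 ± 0.134 (adjusted p = 0.335) and 0.48 ± 0.134 (adjusted p = 0.0661). Both PTZ groups lay above all controls, as did 1.44% of all genes in PTZ and 4.75% in PTZ+Q808. Cacng5, a type II TARP gene, had changes of -0.32 in PTZ and -0.30 in PTZ+Q808 versus control (6.90 ± 1.28, 5.31 ± 0.698 and 5.37 ± 0.820 FPKM, adjusted p = 0.563 and 0.171). In PTZ+Q808 versus PTZ the smallest p belonged to Cnih1 (0.09) and Syndig1 (-0.14), at adjusted p of 0.838 and 0.858.

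Of 6 genes of receptor assembly and export, 2 had positive changes in PTZ+Q808 versus control (44.7% of all genes, median -0.06). An unadjusted p under 0.05 was seen for 1 of the 6 (20.7% of all genes). Frrs1l, whose product builds the receptor complex in the endoplasmic reticulum, was 40.0 ± 1.85 FPKM in control, 46.5 ± 2.70 in PTZ and 44.1 ± 6.95 in PTZ+Q808 (0.21 in PTZ versus control, adjusted p = 0.597). Sacm1l, a phosphoinositide phosphatase gene, had changes of 0.13 in PTZ and 0.20 in PTZ+Q808 versus control (adjusted p = 0.693 and 0.158), and 0.07 in PTZ+Q808 versus PTZ. Abhd6, whose product limits receptor delivery to the surface, had a change of -0.11 in PTZ+Q808 versus control (adjusted p = 0.296).

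Of 22 genes of anchoring and trafficking, 12 had positive changes in PTZ+Q808 versus control (44.7% of all genes, median 0.03). An unadjusted p under 0.05 was seen for 3 of the 22 (20.7% of all genes). The kinase anchor gene Akap5 was 15.2 ± 3.37 FPKM in control, 18.2 ± 1.48 in PTZ and 19.2 ± 3.10 in PTZ+Q808 (0.26 and 0.32 versus control, adjusted p = 0.644 and 0.179). Rab11a, of the recycling endosome, had changes of 0.17 in PTZ+Q808 versus control (adjusted p = 0.118) and 0.11 in PTZ+Q808 versus PTZ (adjusted p = 0.820). Camk2b was at -0.11 in PTZ versus control and Ap2b1, of the clathrin adaptor, at -0.09 in PTZ+Q808 versus PTZ (adjusted p = 0.741 and 0.828). The synaptic scaffold gene Dlg4, named after its values were seen, was 146 ± 3.48, 144 ± 10.4 and 142 ± 4.83 FPKM (adjusted p = 0.945 and 0.679 versus control). Nptx2, an activity-induced pentraxin gene that clusters AMPA receptors and was also named after its values were seen, had wide spreads (30.7 ± 4.95, 44.4 ± 26.3 and 49.2 ± 23.9 FPKM, adjusted p = 0.807 and 0.406 versus control).

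Genes of the RNA-specific adenosine deaminase family had negative changes in PTZ+Q808 versus control for 3 of 3 genes (median -0.11). Of all genes, 44.7% had positive changes there. An unadjusted p under 0.05 was seen for 1 of the 3 (20.7% of all genes). Adarb1, the enzyme of the Gria2 pore site, was 34.1 ± 7.34 FPKM in control, 30.4 ± 2.36 in PTZ and 27.5 ± 3.34 in PTZ+Q808 (-0.29 ± 0.117 in PTZ+Q808 versus control, adjusted p = 0.182). Adar had a change of -0.11 in PTZ+Q808 versus control (adjusted p = 0.484), and Adarb2 one of -0.06 in PTZ versus control (adjusted p = 0.907). Adarb2 was 4.42 ± 0.687 FPKM in control and 4.42 ± 0.576 in PTZ+Q808. Editing itself was not measured by these values, nor were the flip and flop splice forms, since the files give 1 value per gene.

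**Figure D4:**
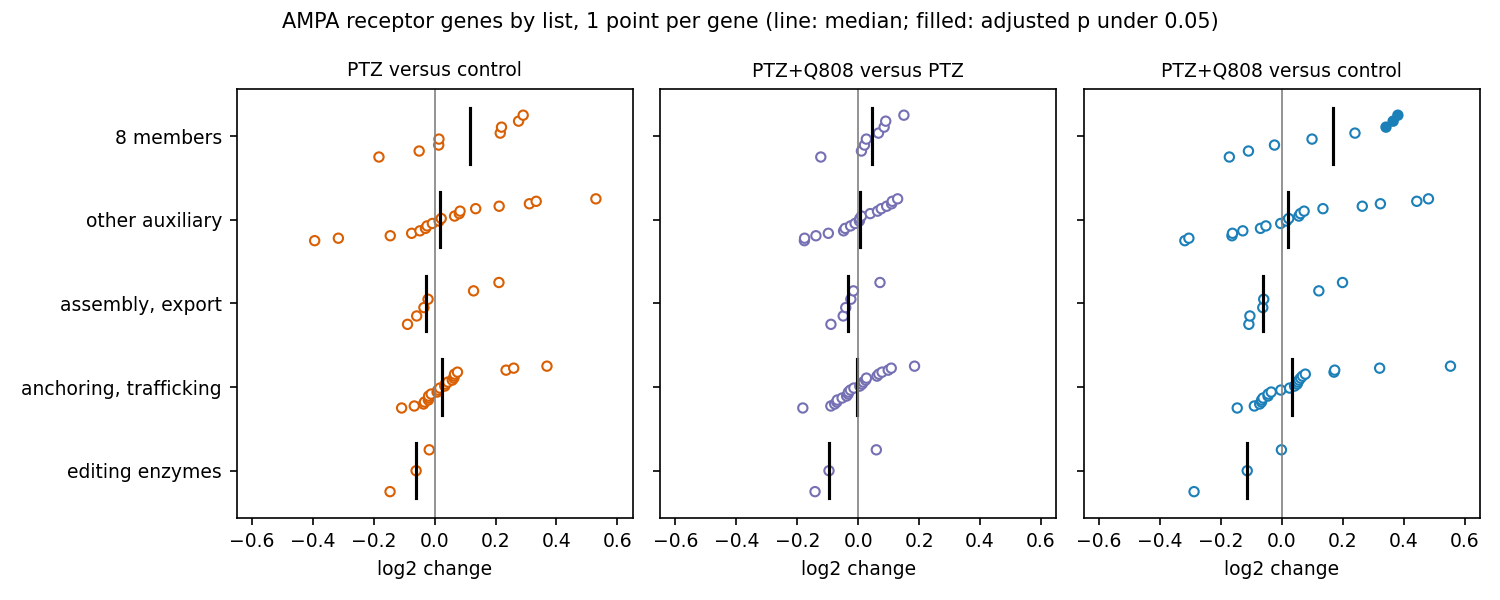
Log2 changes (x axis) of the 8 members and of the 49 genes of the 4 other AMPA receptor lists (y axis) in the 3 comparisons, with 1 point per gene, a line at each list's median and filled points where the adjusted p was under 0.05. The filled points are 3 of the members in PTZ+Q808 versus control, where 2.87% of all genes were called.

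Likeness of pattern was measured as the root-mean-square difference between log2(FPKM + 1) values scaled to mean 0 and SD 1 over the 14 libraries, where 0 is an identical pattern. Gria2 and Gria3 were each other's nearest member, at 0.506 SD, where the median over all genes was 1.48 SD for each. Genes outside the set were closer, as Gria3 ranked 70 of 12743 genes by likeness to Gria2, and Gria2 ranked 21 by likeness to Gria3. Gria4 and Cacng2 had Gria3 as their nearest member (0.895 and 0.837 SD, at ranks 659 and 96). Cacng8 and Cnih2 were nearest to each other (0.800 SD), Gria1 was nearest to Cacng8 (0.874 SD) and Cacng3 to Gria4 (1.00 SD). The farthest pair was Gria1 and Cacng3, at 1.82 SD. All libraries of 1 group share their treatment, so this measure includes the difference between groups.

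The genes most like Gria2 over all 12743 others were Epc2 (0.240 SD), of a histone acetyltransferase complex, and Pafah1b1 (0.284 SD), the lissencephaly gene that regulates dynein. For Gria3 they were Vps50 (0.366 SD), of endosomal recycling, and Nap1l2 (0.402 SD), a neuronal nucleosome assembly gene. Of these 4, limma called Pafah1b1 (0.28, adjusted p = 0.0226), Vps50 (0.29, adjusted p = 0.0272) and Nap1l2 (0.33, adjusted p = 0.0382) in PTZ+Q808 versus control. It did not call Epc2 (0.27, adjusted p = 0.0728), and 2.87% of all genes were called there. The 4 were picked for likeness over the same libraries, group difference included, so their calls are no separate evidence. For Gria4 the nearest were Pkib (0.462 SD) and Lrg1 (0.509 SD), for Cacng2 Pgm2 (0.498 SD) and Trim37 (0.561 SD), and for Gria1 the synaptic genes Tanc1 (0.466 SD) and Clstn2 (0.482 SD). For Cacng3 they were Dusp26 (0.384 SD) and Camk1 (0.445 SD), for Cacng8 Gabpb1 (0.498 SD) and Fgf13 (0.538 SD), and for Cnih2 Rac1 (0.382 SD) and Hdgf (0.383 SD). None of these 12 genes was called in any comparison.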

How the data were processed

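Hippocampal RNA of rats in 3 groups was sequenced as 14 libraries after mRNA capture, per the labels' protocols. The FPKM values are those the authors deposited, 1 per gene and library. The submitters' processing notes list SAMtools, StringTie, Bowtie2, HISAT2, Trimmomatic, HTSeq, Cufflinks and DESeq with no role or version, and the genome build is not given in the sources used here. Counts per library were not used here, so the depth cannot be stated; overlapping and antisense reads could not be separated.

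Genes reaching 1 FPKM in 4 or more libraries (12744) were fitted as log2(FPKM + 1) with limma 3.58.1 (R 4.3.3) over all 3 groups, with a mean-dependent prior, two-sided tests and Benjamini-Hochberg adjustment over all genes tested at 0.05. The pseudocount of 1 slightly understates changes of genes at low FPKM. Ratios were tested with an exact permutation test of the difference of means of log2 ratios over libraries. The scripts were tested on simulated data with known changes.

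The members and lists were chosen with earlier results of these data known. Besides the members, the genes named were, per list and comparison, those called and up to 2 of smallest p, and per member the 2 genes most alike; some that met this rule are not described. Alternatives were pseudocount, filter, scaling, fit, weights, replicate block and leaving out libraries. Libraries with the same replicate number did not vary together (r from -0.28 to 0.143 over 13 pairs, 2 above 0.1), so the numbers were not taken as pairs. Figures were drawn with matplotlib 3.10.9.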

Additional observations from a re-analysis of the deposited data

How the results depend on the processing

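Some alternatives cannot move the log2 changes of Gria2, Gria3 and Gria4 in PTZ+Q808 versus control, but only their p. These are leaving out a PTZ library, another filter, the robust prior and fitting the 2 groups alone. Gria2, Gria3 and Gria4 kept their higher values in PTZ+Q808 versus control in all 28 alternatives run on each. The log2 changes were 0.34 to 0.41, 0.33 to 0.37 and 0.29 to 0.41, and the 3 genes were called in 16, 19 and 15 of these alternatives. Their count of 3 was 2 when the 2 groups alone were fitted (Gria4, adjusted p = 0.0556), 1 with no filter on low values, 0 with a replicate block (adjusted p = 0.0762, 0.0705 and 0.0918), 1 with the myelin markers as covariate, 0 without the 3 libraries low in Ttr and 0 without the 2 libraries high in striatum or pituitary markers. It ran from 0 to 3 when 1 library was left out. In PTZ versus control the count ran from 0 to 1 when 1 library was left out (Gria3 without PTZ replicate 1), and no member was called in PTZ+Q808 versus PTZ in any alternative. The count of all genes called in PTZ+Q808 versus control (366) was 190 with no filter, 1100 with weights per library, 4 with a replicate block and 199 when the 2 groups alone were fitted, 221 with the myelin covariate, 57 without the striatum or pituitary libraries and 0 without those low in Ttr. In PTZ+Q808 versus PTZ it was 2 with no filter and 0 in each other fit. In PTZ versus control it was 4 with every library and 1 with no filter, 7 with weights, 0 with a block, 0 for the 2 groups alone and 1 with the myelin covariate, and ran from 1 to 5 when 1 library was left out.

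Values that turned in sign were not called with any setting. These were Gria1 in PTZ versus control (-0.014 with weights, -0.0048 with a replicate block, -0.012 with the neuron covariate, -0.092 without the libraries low in Ttr, -0.027 without those high in striatum or pituitary markers, and -0.047 to 0.068 over single libraries left out) and Cacng3 in PTZ versus control (-0.075 with the myelin covariate, -0.045 without the striatum or pituitary libraries, -0.081 to 0.13 over single libraries). Others were Cacng3 in PTZ+Q808 versus control (-0.044 with the myelin covariate), Cacng8 in the same comparison (0.033 with the myelin and 0.023 with the neuron covariate, -0.059 to 0.019 over single libraries) and Cacng8 in PTZ+Q808 versus PTZ (-0.0055 with weights, -0.0080 to 0.070). Cnih2 in PTZ+Q808 versus PTZ turned too (-0.0081 at equal totals, -0.011 with quantile normalization, -0.047 with weights, -0.066 to 0.074), as did Cacng2 (-0.056 without the libraries low in Ttr, -0.027 to 0.047). The ratio of Cacng3 to Cacng8 turned in PTZ versus control (-0.034 for medians, -0.075 to 0.19), in PTZ+Q808 versus PTZ (-0.045 without the libraries low in Ttr, -0.024 to 0.15) and in PTZ+Q808 versus control (-0.015 to 0.25), and in PTZ+Q808 versus PTZ so did those of Cacng2 (-0.080 to 0.051) and Cnih2 (-0.069 to 0.029) to Cacng8. The cause was not tested. The covariates and the subsets by Ttr, striatum and pituitary markers were chosen after seeing the data, and the unknown depth limits the reading of low values.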
